A study of Mus musculus with 4 samples.

Results

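Fzd10, a frizzled receptor for Wnt proteins, was followed here with 5 other genes of the canonical Wnt pathway in mouse thymocytes: Ctnnb1, Apc, Axin2, Tcf7 and Lef1. These are 6 of the 22730 gene symbols in the expression files, and they fill 7 of the 28283 transcript rows because Ctnnb1 has 2. In the junction files they hold 90 of the 188794 exon-exon junctions with a read in any library. The members were taken by gene symbol. Fzd10 was chosen by its fold change between KO and WT libraries, so its difference between the groups is given as a description, with no test. The other 5 were added as the pathway's transducers, nuclear factors and feedback gene.

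Wnt proteins bind frizzled receptors and their co-receptors at the cell surface. In cells without that signal, a cytoplasmic complex that contains the proteins of Apc and Axin2 marks β-catenin for destruction; with it, β-catenin builds up and enters the nucleus, where it binds DNA together with Tcf and Lef proteins. In the thymus the nuclear end of the pathway is known above all for Tcf7 and Lef1, which early T cell progenitors need to become T cells and to pass through the CD4 and CD8 double-positive stage. hnRNP L, made from Hnrnpl, is an RNA-binding protein that controls alternative splicing and is known to bind CA-rich RNA.

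RNA from total thymocytes was sequenced on the SOLiD platform after ribosomal RNA was depleted, with 1 library per mouse. The labels call 2 mice hnRNP L KO and 2 mice WT. For all 4 they give the same mixed genetic background, which lists CD45.1 and C57BL/6 among its parts. An LckCre transgene is listed there too, with a Lck promoter that is active in developing T cells. So is a fluorescent Cre reporter in the Rosa26 locus, written Gt(ROSA)26Sortm4(ACTB-tdTomato,-EGFP)Luo. The sources used here do not state ages or sexes, the deleted part of Hnrnpl, the Cre status of single mice, or how libraries were placed on slides.

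Each KO library was shallower than each WT library, with 69061265 and 75485061 mapped reads in KO replicates 1 and 2, against 99782558 and 122619310 in WT replicates 1 and 2. Read counts scaled to a common depth (CPM, adjusted to library size by the TMM method) take this into account. Hnrnpl itself stood at 467 and 208 CPM in the KO libraries, against 854 and 813 CPM in the WT libraries. It was lower in both KO libraries and absent from neither, and KO replicate 2 held the smaller remainder, at 25.0% of the WT mean against 56.0% in KO replicate 1. The libraries carried the genes that define thymocytes, with Rag1, the recombinase of antigen receptor genes, at 7685 and 5529 CPM in KO and at 7811 and 7402 CPM in WT.

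Fzd10 (NM_175284, mm9 chr5:129106981-129109968, plus strand) is read from a single exon of 2988 nt, so it has no splice junction. The KO libraries held 196 and 139 reads of it, against 710 and 1138 reads in the WT libraries. Scaled to depth, Fzd10 reached 7.10 and 4.49 CPM in KO replicates 1 and 2, against 18.2 and 22.3 CPM in WT replicates 1 and 2. Both KO libraries lay below both WT libraries with no overlap, and the lowest value was again that of KO replicate 2. The group means were 5.79 ± 1.84 CPM in KO and 20.3 ± 2.88 CPM in WT (SD, n = 2 each).

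The edgeR estimate for Fzd10 was a log2 fold change of -1.81 (SE 0.24), a KO level 0.285 times that of WT. The KO replicates stood at 35.0% and 22.2% of the WT mean. Ranked from the lowest fold change upward, Fzd10 was gene 110 of the 13733 tested. Summed over the libraries of a group and divided by all gene reads, Fzd10 had 0.301 times the share in KO that it had in WT. KO libraries lay wholly below WT libraries for 21.4% of all tested genes and wholly above them for 23.3%; of the 6 members only Fzd10 lay below, by the values that chose it, and none lay above. In RNA from total thymocytes, fewer cells of a type and less RNA per cell cannot be told apart.

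**Figure D1:**
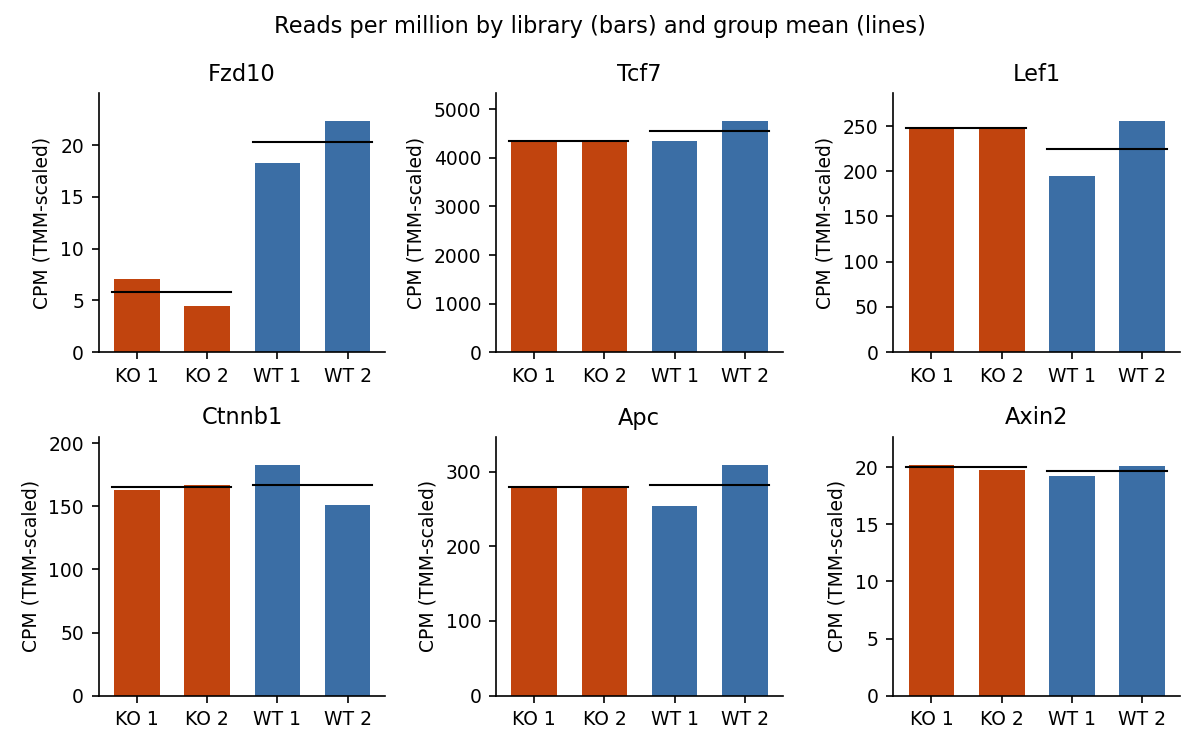
TMM-scaled CPM of each member gene in KO replicates 1 and 2 and WT replicates 1 and 2; bars are libraries and black lines are group means. Fzd10 is lower in both KO libraries, at 7.10 and 4.49 CPM against 18.2 and 22.3 CPM, while KO and WT libraries overlap for the other 5 genes.

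Mice have 10 frizzled genes, and all were listed. Per length, in RPKM (reads scaled by mapped reads and by the length of the transcript), Fzd10 stood at 0.950 and 0.616 in KO and at 2.38 and 3.11 in WT. In WT libraries this was the highest level of the 10, followed by Fzd5 at 0.767 and 0.965 RPKM. In the KO libraries Fzd5 had 0.660 and 0.998 RPKM, so Fzd10 was first in KO replicate 1 and second to Fzd5 in KO replicate 2. In KO the levels of Fzd10 and Fzd5 did not differ beyond the spread between the libraries. Fzd7 was next with 0.301 and 0.432 RPKM in KO and 0.286 and 0.334 RPKM in WT. The other 7 frizzled genes stayed below 0.273 RPKM in every library.

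Fzd10 made up 41.9% and 23.4% of the summed frizzled RPKM in KO, against 60.5% and 62.5% in WT. The fold change by which Fzd10 was chosen enters these shares, so they are a description too. The 9 other genes together summed to 1.32 and 2.02 RPKM in KO and to 1.56 and 1.86 RPKM in WT. Those sums overlap between the groups. In WT the lead of Fzd10 over Fzd5 was 3.11-fold and 3.22-fold, wider than the spread between the WT libraries.

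**Figure D2:**
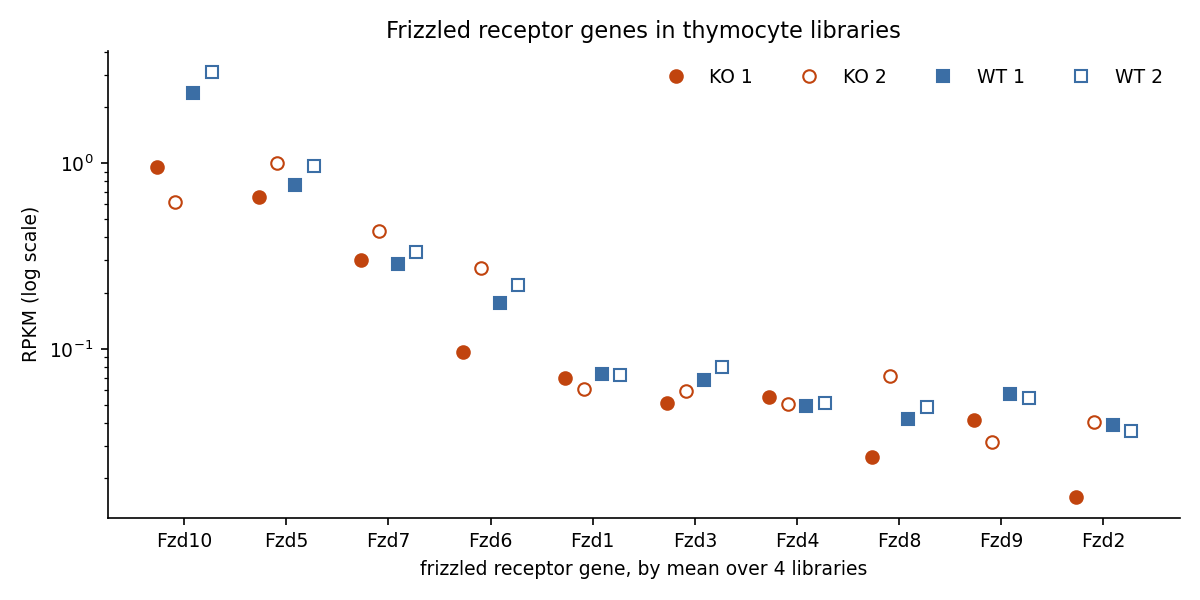
RPKM (log scale) of the 10 frizzled receptor genes in each library, ordered by their mean over the 4 libraries; circles are KO and squares WT, filled for replicate 1 and open for replicate 2. Fzd10 leads in both WT libraries at 2.38 and 3.11 RPKM and lies among the values of Fzd5 in the KO libraries.

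The nearest listed gene to Fzd10, 5930412G12Rik, lies 418 bp below it on the opposite strand (NR_015517, a non-coding RNA by its RefSeq accession class). Its 5′ end faces that of Fzd10, as it is read from the minus strand. It had 17 and 19 reads in KO and 37 and 38 reads in WT, or 0.616 and 0.614 CPM in KO and 0.950 and 0.745 CPM in WT. Its log2 fold change of -0.46 (SE 0.42) did not pass the test (edgeR, adjusted p = 0.693). On the other side Piwil1, a gene of germ-line small RNA silencing, lies 132152 bp away and had 0 and 0 reads in KO and 1 and 2 reads in WT. No listed transcript overlaps Fzd10. Around the other 5 members, none of the 9 neighbours tested was called, and their log2 fold changes ran from -0.36 to 0.28.

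Of all tested genes, the 5 whose pattern over the 4 libraries lay closest to that of Fzd10 were Hist1h4j, Serpinf2, Hoxa4, Hnrnpl and Pde6a. The measure was the distance between log2 CPM values centred on each gene's mean, which ran from 0.308 for Hist1h4j to 0.603 for Hnrnpl and 0.611 for Pde6a. Hist1h4j, a histone H4 gene, had 258 and 206 reads in KO and 1195 and 1948 reads in WT. Serpinf2 and Hoxa4 rest on few reads, 11 and 6 in KO against 31 and 53 in WT for Serpinf2, and 4 and 4 in KO against 21 and 34 in WT for Hoxa4. The targeted gene was thus among the genes most like Fzd10 over these libraries, a likeness that rests on 4 libraries and on a pattern for which Fzd10 was chosen.

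For no marker list of another cell type did both KO libraries lie below both WT libraries. The list of thymic epithelium and stroma was found whole (16 of 16 genes, none at 0 in all libraries) and summed to 268 and 366 CPM in KO and 283 and 287 CPM in WT. Its KO sums lie on either side of the WT sums. B cell markers (8 of 8 genes) summed to 52.6 and 46.6 CPM in KO and 45.1 and 46.6 CPM in WT, and myeloid markers (10 of 10) to 228 and 211 CPM in KO and 218 and 222 CPM in WT. Erythroid markers (8 of 10 genes listed) stood apart in KO replicate 1, at 463 CPM against 96.2 CPM in KO replicate 2 and 149 and 132 CPM in WT. Double-positive thymocyte markers (12 of 12) were lowest in KO replicate 2, with 19313 and 14594 CPM in KO and 19306 and 18815 CPM in WT. Mature single-positive markers (13 of 13) were lowest there too, with 1336 and 971 CPM in KO and 1223 and 1248 CPM in WT. The same library had the most counts of double-negative markers (11 of 12 genes), which summed to 668 and 1063 CPM in KO and 663 and 879 CPM in WT. Within each of these lists the genes went both ways. Log2 fold changes were negative for 8 double-positive markers and positive for 4, from -0.68 for Ccr9 to 0.65 for Rag2. They were negative for 9 and positive for 4 mature markers, and negative for 3 and positive for 8 double-negative markers. The log2 fold change of Fzd10 was -1.51 when KO replicate 2 was left out and -2.18 when KO replicate 1 was left out. The part of these marker differences in the level of Fzd10 was not tested.

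Behind the receptor, the 3 cytoplasmic members showed no difference that passed the test. Ctnnb1, which encodes β-catenin (NM_007614, mm9 chr9:120842518-120869625), stood at 163 and 167 CPM in KO and 183 and 151 CPM in WT. The WT libraries enclose both KO libraries. Its log2 fold change was -0.02 with a 95% interval of -0.32 to 0.29 (edgeR, adjusted p = 0.969). The second Ctnnb1 row, the transcript NM_001165902, shares nearly all of these reads, with 4482 and 5135 in KO and 7061 and 7655 in WT, against 4508 and 5169 in KO and 7127 and 7722 in WT for NM_007614.

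Apc, a scaffold of the destruction complex (NM_007462, mm9 chr18:34380638-34481844), had 280 and 279 CPM in KO and 254 and 309 CPM in WT, and the WT libraries again enclosed the KO libraries. Its log2 fold change was -0.01 with a 95% interval of -0.33 to 0.31 (edgeR, adjusted p = 0.981). Axin2 is both a part of that complex and a gene that Wnt signals switch on in many tissues (NM_015732, mm9 chr11:108781663-108812095). It had 20.2 and 19.8 CPM in KO and 19.3 and 20.1 CPM in WT, 4 values within 1 CPM of each other. The log2 fold change of Axin2 was 0.02 with a 95% interval of -0.30 to 0.34 (edgeR, adjusted p = 0.965). For these 3 genes the intervals leave room for a KO level between 0.796 and 1.27 times that of WT.

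The nuclear members Tcf7 and Lef1 encode related DNA-binding proteins, and Tcf7 was by far the more abundant. Tcf7 (NM_009331, mm9 chr11:52066106-52095752, minus strand) ranked 31st of the 22730 genes by mean RPKM, with 780 and 806 RPKM in KO and 764 and 890 RPKM in WT. Its CPM values were 4339 and 4370 in KO and 4356 and 4756 in WT, which overlap. The log2 fold change was -0.07 with a 95% interval of -0.43 to 0.30 (edgeR, adjusted p = 0.890). Lef1 (NM_010703, mm9 chr3:130813389-130926249, plus strand) had 40.3 and 41.3 RPKM in KO and 30.9 and 43.2 RPKM in WT, which placed it 678th. In CPM it stood at 248 and 247 in KO and 194 and 255 in WT, with both KO libraries inside the range of WT. Its log2 fold change was 0.14 with a 95% interval of -0.22 to 0.49 (edgeR, adjusted p = 0.744).

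The likeness of the proteins shows in the exons that encode their HMG box, the domain that binds DNA. They are printed because they show how far the 2 transcripts can be told apart by their reads. Exon 6 of Tcf7 and exon 8 of Lef1 are both 163 nt long and open the box, and exon 7 of Tcf7 and exon 9 of Lef1 are both 108 nt long and continue it. Sequences are those of GENCODE M21 transcripts Tcf7-201 and Lef1-201 (GRCm38, exons numbered as in the deposited junctions), and capitals mark the bases that differ within a pair.
Tcf7 exon 6 (chr11:52256949-52257111, minus strand): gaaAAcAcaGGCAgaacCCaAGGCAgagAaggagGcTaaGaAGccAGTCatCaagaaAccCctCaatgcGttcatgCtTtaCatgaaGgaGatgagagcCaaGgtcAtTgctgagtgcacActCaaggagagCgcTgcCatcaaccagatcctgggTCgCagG
Lef1 exon 8 (chr3:131194625-131194787, plus strand): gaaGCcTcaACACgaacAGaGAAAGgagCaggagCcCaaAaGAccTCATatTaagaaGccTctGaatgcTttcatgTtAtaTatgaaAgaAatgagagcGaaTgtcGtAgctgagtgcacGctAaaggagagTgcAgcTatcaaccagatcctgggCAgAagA
Tcf7 exon 7 (chr11:52256740-52256847, minus strand): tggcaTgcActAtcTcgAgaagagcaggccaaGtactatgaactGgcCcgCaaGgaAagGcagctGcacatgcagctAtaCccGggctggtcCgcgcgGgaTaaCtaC
Lef1 exon 9 (chr3:131200295-131200402, plus strand): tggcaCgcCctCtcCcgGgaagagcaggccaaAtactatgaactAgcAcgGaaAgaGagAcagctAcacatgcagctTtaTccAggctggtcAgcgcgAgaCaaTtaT

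The first pair matched at 116 of 163 bases (71.2%) and the second at 87 of 108 (80.6%), without gaps. The longest identical stretch was 17 bases in the first pair and 14 in the second. Exon 8 of Tcf7 and exon 10 of Lef1, both 49 nt, matched at 33 bases (67.3%). No stretch longer than these was identical in the paired exons.

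By the same distance as for Fzd10, the genes closest in pattern to Tcf7 were Atf6b, Snx6 and Hps5, at 0.021 to 0.025. Those closest to Lef1 were Filip1l, Zfc3h1 and Usp7, at 0.017 to 0.018, and those closest to Axin2 were Zfp157, Pts and Clcc1, at 0.004 to 0.017. Near Tcf7 and Axin2 these small distances belong to genes that vary little over the 4 libraries. Lef1 and the genes near it were lower in WT replicate 1 than in the other libraries. Usp7 had 369 CPM there and 485 CPM in WT replicate 2.

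Lists of ligands, receptors, inhibitors, cytoplasmic and nuclear factors and targets, 7 in all with 142 distinct genes, placed the members in the wider pathway, and 104 of these genes had enough reads to be tested. None passed the threshold of 0.05 on the adjusted p-value, where 1 of 13733 genes did over the whole table (0.00728%). That one gene was no member. The median log2 fold change of the 104 genes was -0.05, beside 0.01 over all genes. KO libraries lay wholly below WT for 26 of the 104 (25.0%), with Fzd10 counted among them by the values that chose it. They lay wholly above for 18 (17.3%). Over all genes, as given above, these shares were 21.4% and 23.3%. At an unadjusted p under 0.05 there were 10 of the 103 genes other than Fzd10 (9.71%), against 1360 of all genes (9.90%). The count of calls over all genes turned on single libraries, with 427 calls when KO replicate 1 was left out, 13 when KO replicate 2 was, 43 when WT replicate 2 was and 2 when WT replicate 1 was. DESeq2 called 113 of 13733 genes on all 4 libraries. Which listed genes other than the members were called without 1 library is not given, since such a fit leaves 1 library in a group. None of Tcf7, Lef1, Ctnnb1, Apc and Axin2 was called in any of these fits.

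Among the Wnt ligands and their transport genes, 8 of 21 were tested, with a median log2 fold change of -0.30 that was -0.48 without KO replicate 1 and -0.19 without KO replicate 2. Wls, the carrier that brings Wnt proteins to the cell surface, was the most abundant per length at 10.5 and 6.97 RPKM in KO and 11.4 and 9.72 RPKM in WT. Wnt8b followed with 2.54 and 1.03 RPKM in KO and 2.80 and 2.88 RPKM in WT, both KO libraries lying lower. Its log2 fold change of -0.67 (SE 0.49) did not pass the test (edgeR, adjusted p = 0.645). That fold change was -1.49 without KO replicate 1 and -0.15 without KO replicate 2. Wnt5b had 1.25 and 1.30 RPKM in KO and 1.40 and 1.80 RPKM in WT.

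Among receptors and co-receptors, 16 of 24 were tested, with a median of -0.09 that includes Fzd10. That median turned on single libraries: it was -0.57 without KO replicate 2, 0.05 without KO replicate 1, -0.18 without WT replicate 1 and 0.05 without WT replicate 2. Lrp6, a co-receptor, had 7.89 and 8.94 RPKM in KO and 7.54 and 9.79 RPKM in WT, which overlap. Lrp5, its close relative, stood at 1.86 and 2.80 RPKM in KO and 1.31 and 1.76 RPKM in WT, higher in both KO libraries. The log2 fold change of Lrp5 was 0.60 (SE 0.21) and did not pass the test (edgeR, adjusted p = 0.475). Znrf3, a membrane ubiquitin ligase that removes frizzled proteins from the cell surface, had 3.89 and 3.95 RPKM in KO and 3.39 and 3.64 RPKM in WT. Its log2 fold change was 0.15 (SE 0.10).

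Of the secreted and surface inhibitors 4 of 16 were tested, with a median of 0.28 that was 0.48 without WT replicate 1 and 0.13 without WT replicate 2. Kremen1, a receptor for the Dkk inhibitors, was abundant at 36.4 and 32.3 RPKM in KO and 35.0 and 36.4 RPKM in WT. Apcdd1 and Sfrp1 stayed below 0.61 RPKM in every library.

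In the cytoplasm, 25 of 26 genes were tested, with a median of -0.05 that was -0.08 without WT replicate 1. The most abundant were Csnk1a1, the kinase that first marks β-catenin, with 92.5 and 81.7 RPKM in KO and 101 and 104 RPKM in WT, Csnk1g2, a kinase of the co-receptors, with 43.3 and 37.0 RPKM in KO and 52.4 and 48.2 RPKM in WT, and Tnks2, a tankyrase that destabilises axin proteins, with 35.9 and 35.2 RPKM in KO and 38.0 and 40.7 RPKM in WT. All 3 lay lower in both KO libraries, by log2 fold changes of -0.24, -0.33 and -0.15 that did not pass the test. Of the 25 tested genes, KO libraries lay wholly below WT for 8 and wholly above for 2. Over all tested genes these shares were 21.4% and 23.3%.

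Of the nuclear factors 21 of 22 were tested, with a median of 0.07 that was -0.04 without WT replicate 1 and -0.06 without KO replicate 2. Aes, a co-repressor that lacks the tail of the other Groucho proteins, stood at 173 and 136 RPKM in KO and 179 and 189 RPKM in WT, with a log2 fold change of -0.26 (SE 0.16). Sox4, an HMG box factor of lymphocyte progenitors, had 56.4 and 41.9 RPKM in KO and 60.1 and 58.5 RPKM in WT. Of the feedback and target genes 14 of 20 were tested, with a median of -0.03 that was -0.11 without WT replicate 1, -0.04 without KO replicate 2 and 0.03 without WT replicate 2. Tcf7, Sox4 and Lef1 were the most abundant genes of that list.

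All 25 genes of the list bound or controlled by Tcf7 and Lef1 in T cells were tested, with a median of -0.02 that was -0.15 without KO replicate 1, -0.06 without WT replicate 1, and 0.05 without KO replicate 2 and without WT replicate 2. Cd8a, the α chain of the CD8 co-receptor, had 2076 and 1766 CPM in KO and 1858 and 1976 CPM in WT. Cd8b1, the β chain, had 1362 and 906 CPM in KO and 1350 and 1302 CPM in WT, and Rag1 is given above. All 3 overlap between the groups. Fzd10 aside, which is given no test, DESeq2 called 2 of the other 103 listed genes tested on all 4 libraries, Rag2 and Cd3e. Over all genes it called 113 of 13733. Rag2 and Cd3e were singled out after their values were seen. Rag2, the partner of Rag1, had 491 and 570 CPM in KO and 340 and 335 CPM in WT, and Cd3e, a chain of the T cell receptor complex, had 226 and 357 CPM in KO and 120 and 178 CPM in WT. Both were higher in both KO libraries, with log2 fold changes of 0.65 (SE 0.14) and 0.97 (SE 0.29) that did not pass the edgeR test (adjusted p = 0.377 and 0.470). Without KO replicate 1 the log2 fold changes were 0.75 for Rag2 and 1.26 for Cd3e. Without KO replicate 2 they were 0.54 and 0.60.

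**Figure D3:**
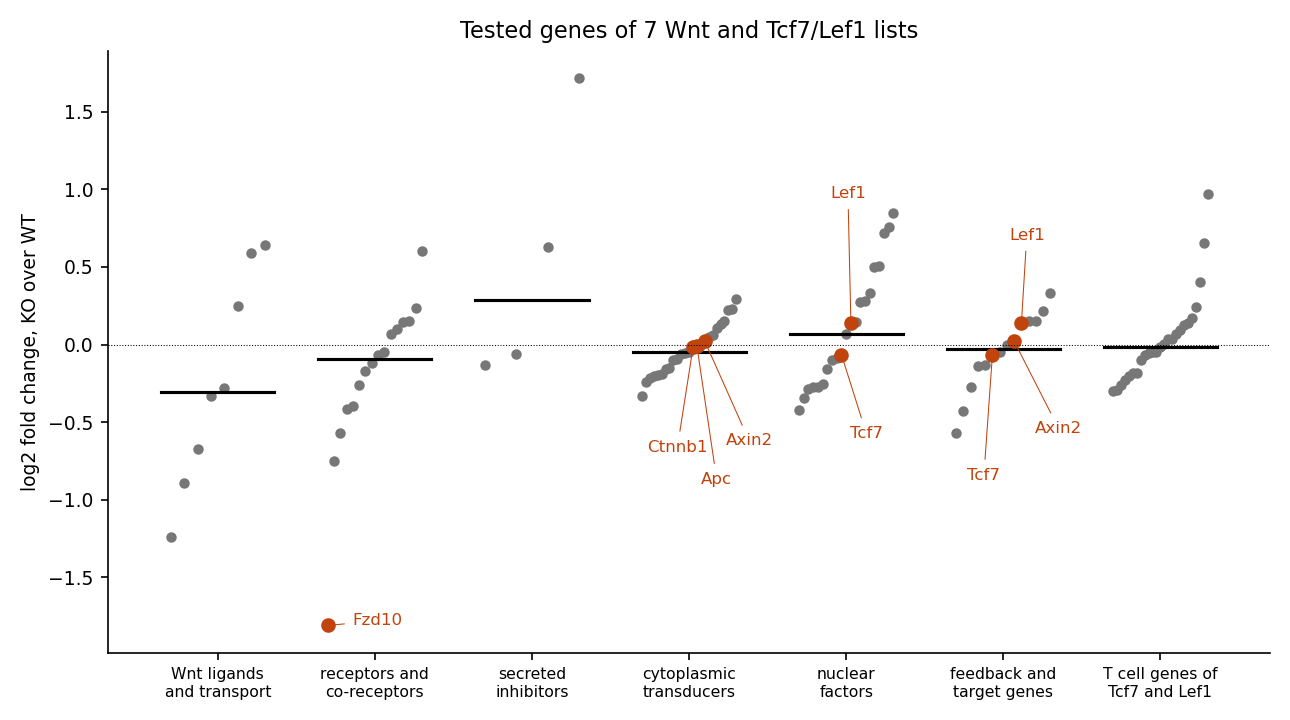
Log2 fold change, KO over WT, of each tested gene (points) in 7 lists of Wnt pathway and Tcf7/Lef1 genes, with list medians (bars) and the 6 members named in colour. Fzd10 lies at -1.81, and the list medians lie between -0.30 and 0.28.

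The splice junctions of the 5 genes with introns were compared for their use relative to the other junctions of the same gene. Over the 4 libraries, reads on known junctions numbered 51796 for Tcf7, 7154 for Lef1, 1886 for Ctnnb1, 1194 for Apc and 201 for Axin2. Of their junctions 62 had at least 10 reads and were tested, and none was called by edgeR's diffSpliceDGE, where 4 of 95139 junctions were called over the whole table (0.0042%). At an unadjusted p under 0.05 there was 1 of the 62, against 2423 of all tested junctions (2.55%). None of the 62 was called with any 1 library left out, while calls over the whole table then numbered 3 without the first KO library, 9 without the second, 7 without the first WT library and 10 without the second. The junction with the smallest p in each gene joined exons 6 and 7 in Tcf7 (log2 usage -0.27), exons 10 and 11 in Ctnnb1 (0.70), exons 5 and 6 in Apc (-0.61) and exons 10 and 11 in Axin2 (-0.57). In Lef1 it joined exons 5 and 7, described below with the exon it leaves out.

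Junctions that the authors mark as putative held a larger share of the reads in Tcf7 than in the other genes. They held 12.2% and 13.2% of Tcf7 junction reads in KO and 9.81% and 11.7% in WT, and both KO libraries lay higher. In Apc they held 50 reads, which were 1.54% and 3.31% of its junction reads in KO and 5.36% and 4.46% in WT. In Lef1 they held 83 reads, in Ctnnb1 5 and in Axin2 0. Nearly all of those in Tcf7 belonged to the junction from exon 3 to exon 5, which leaves out exon 4 and had 6743 of the 6808 putative reads.

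Exon 4 of Tcf7 (mm9 chr11:52072355-52072447) is 93 nt long, and leaving it out keeps the reading frame. Skipping is the share of skipping reads among these and the mean of the 2 inclusion junctions. The skipping junction had 1291 and 1638 reads in KO and 1420 and 2394 reads in WT, while the junction of exons 3 and 4 had 271 and 205 reads in KO and 360 and 385 reads in WT. Skipping reached 82.3% and 89.7% in KO, with Clopper-Pearson intervals of 80.3 to 84.1% and 88.2 to 91.0%. In WT it was 82.8% and 84.2%, with intervals of 81.0 to 84.6% and 82.8 to 85.5%. These intervals do not cover the difference between the inclusion junctions. In WT replicate 1, inclusion was 20.2% by the upstream junction alone and 13.8% by the downstream junction alone. KO replicate 2 lay above the other libraries, and KO replicate 1 lay at the level of WT, so the groups overlap. The means were 86.0 ± 5.21% in KO and 83.5 ± 0.95% in WT (SD, n = 2 each), and their difference was smaller than the spread between the KO libraries. The log2 usage of the skipping junction was 0.17 (diffSpliceDGE of edgeR, adjusted p = 1.00).

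The form without exon 4 thus had most of the Tcf7 reads that bear on this choice in all 4 libraries. Neither of the 2 Tcf7 transcripts in GENCODE M21 skips the exon, and the deposited files list the junction as putative. Tcf7-201 has 10 exons there, against 9 in the deposited junctions. The deposited junctions start at the second of these 10. Tcf7 is known to be made in long forms, which bind β-catenin, and in short forms, which do not, and these were not told apart here.

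In Lef1, exon 6 (mm9 chr3:130893941-130894024) is 84 nt long and also keeps the frame. Its human counterpart is known to be spliced in or out as T cells develop and are activated. The junction that skips it had 5 and 14 reads in KO and 4 and 4 reads in WT. Skipping was 3.80% and 8.21% in KO, with intervals of 1.25 to 8.68% and 4.58 to 13.4%, and 2.48% and 1.37% in WT, with intervals of 0.677 to 6.20% and 0.374 to 3.47%. Both KO libraries lay above both WT libraries, but only the interval of KO replicate 2 cleared that of WT replicate 2. How often skipping shares, putative shares or junction ratios separate the groups over all genes was not counted, here or for the other exons and ratios. For gene levels, KO libraries lay wholly above WT for 23.3% of tested genes and wholly below for 21.4%. The means were 6.01 ± 3.12% in KO and 1.92 ± 0.78% in WT (SD, n = 2 each). This was the only one of the 62 junctions with an unadjusted p under 0.05, with a log2 usage of 1.11, and it was not called (diffSpliceDGE of edgeR, adjusted p = 1.00). The difference of 4.08 points became 1.88 points when KO replicate 2 was left out and 6.29 points when KO replicate 1 was. In 3 of the Lef1 transcripts of GENCODE M21 this exon is skipped.

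The sequences of the 2 alternative exons are printed because they carry the splice choices with the most reads in the nuclear members and the lowest p of the 62 junctions. Capitals mark ACAC, the unit of the CA repeats that hnRNP L binds, searched on the transcript strand only. Both come from GENCODE M21 (GRCm38).
Lef1 exon 6 (chr3:131191023-131191106, plus strand): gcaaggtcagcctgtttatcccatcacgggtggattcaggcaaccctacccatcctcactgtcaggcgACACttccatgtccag
Tcf7 exon 4 (chr11:52258853-52258945, minus strand): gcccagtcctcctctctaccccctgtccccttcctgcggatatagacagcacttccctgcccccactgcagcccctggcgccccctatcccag

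Lef1 exon 6 holds 1 ACAC, near its 3′ end, and 26.1% of the 1596 internal exons of 84 nt in GENCODE M21 hold 1 or more. Tcf7 exon 4 holds none, and 27.7% of the 1576 internal exons of 93 nt hold 1 or more. Introns, where such sites can also lie, were not read here.

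Exon 11 of Lef1, 41 nt near the 3′ end of the transcript, was skipped at 4.70% and 4.16% in KO and at 6.47% and 7.08% in WT. The KO libraries lay lower, on 7 and 8 skipping reads in KO and 11 and 21 in WT, and all 4 intervals overlapped. The transcript Lef1-204 of GENCODE M21 skips it. The difference of -2.35 points became -11.1 points when inclusion was read from the junction of exons 11 and 12 alone, which had far fewer reads than that of exons 10 and 11.

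Exon 8 of Apc is 105 nt long and in frame. The junction that skips it had 3 and 8 reads in KO and 15 and 21 reads in WT. Skipping was 17.1% and 37.2% in KO, with intervals of 3.80 to 43.4% and 17.2 to 59.3%, and 42.3% and 42.0% in WT, with intervals of 26.3 to 60.6% and 28.2 to 56.8%. Both KO libraries lay lower, within counting error of WT. The difference of -14.95 points became -4.92 points without KO replicate 1 and -3.00 points when inclusion was read from the junction of exons 8 and 9 alone. The log2 usage of the skipping junction was -0.57 (diffSpliceDGE of edgeR, adjusted p = 1.00). Another 9 exons of Tcf7, Lef1 and Apc had a junction that skipped only them, each with 3 reads or fewer over the 4 libraries, and no exon of Ctnnb1 or Axin2 had one.

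**Figure D4:**
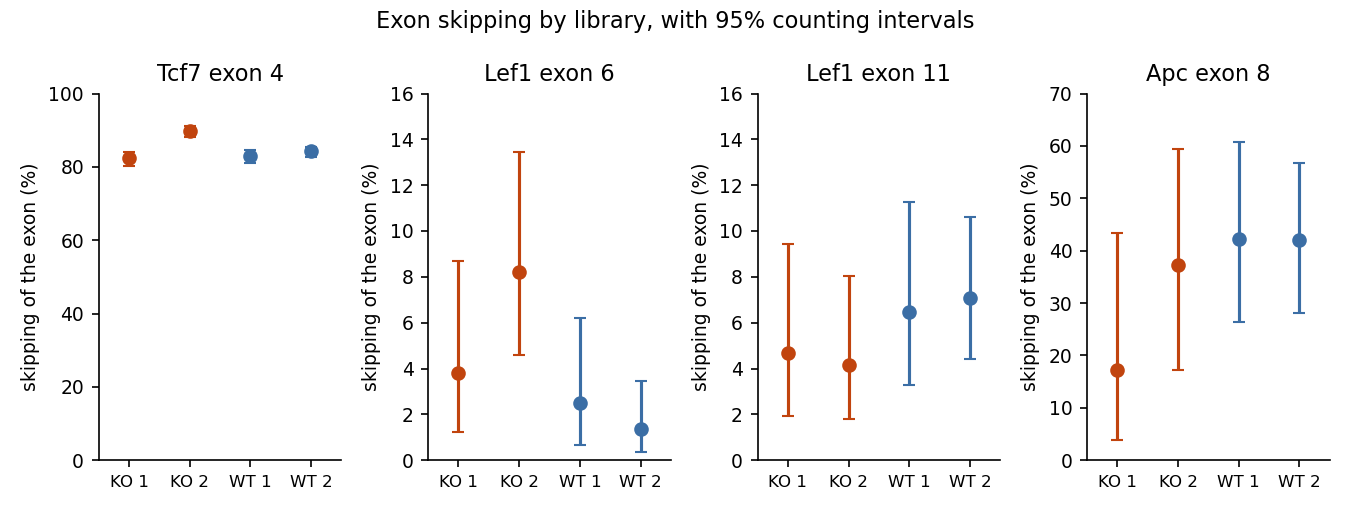
Share of skipping (%) of 4 exons in each library, KO replicates left of WT replicates, with 95% Clopper-Pearson intervals for counting error; the vertical scales differ. Tcf7 exon 4 is skipped at 82.3% or more in every library, and Lef1 exon 6 at 3.80% and 8.21% in KO and 2.48% and 1.37% in WT.

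In Tcf7 and Lef1 the reads per known junction were uneven along the gene, with peaks at the same junctions in the 4 libraries. In Tcf7 they ran from 1200 reads over the 4 libraries between exons 4 and 5 to 17178 between exons 5 and 6, a 14.3-fold range. The last 3 junctions of Tcf7 had on average 13.4% and 17.8% as many reads as those of exons 1 and 2, 2 and 3, and 5 and 6 in KO, and 17.3% and 16.5% in WT. In Lef1 the junctions of exons 2 and 3 (1423 reads) and of exons 10 and 11 (1326 reads) stood above the rest, and the last, of exons 11 and 12, had the fewest (196 reads). The ratio of the first Lef1 junction to the second was 0.246 and 0.142 in KO and 0.158 and 0.134 in WT. In Tcf7 that ratio was 0.844 and 1.15 in KO and 1.09 and 0.957 in WT. Both ratios differed more between the KO libraries than between the WT libraries, and the groups overlapped in each. Further along, the ratio of exons 11 and 12 over exons 10 and 11 in Lef1 was 0.174 and 0.179 in KO and 0.124 and 0.129 in WT, with no overlap. The ratio itself was not tested, and the junction of exons 11 and 12 had a log2 usage of 0.30 and was not called (diffSpliceDGE of edgeR, adjusted p = 1.00). The ratio of exons 6 and 7 over exons 5 and 6 in Tcf7 was 0.119 and 0.186 in KO and 0.218 and 0.175 in WT, which overlap. The corresponding range over known junctions with reads was 13.4-fold in Apc, 17.9-fold in Ctnnb1 and 12.5-fold in Axin2. Single junctions of Axin2 had few reads, such as 0 and 3 in KO and 6 and 1 in WT for exons 2 and 3, so no profile shared by the libraries is given for it. How well reads map to each junction was not tested.

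**Figure D5:**
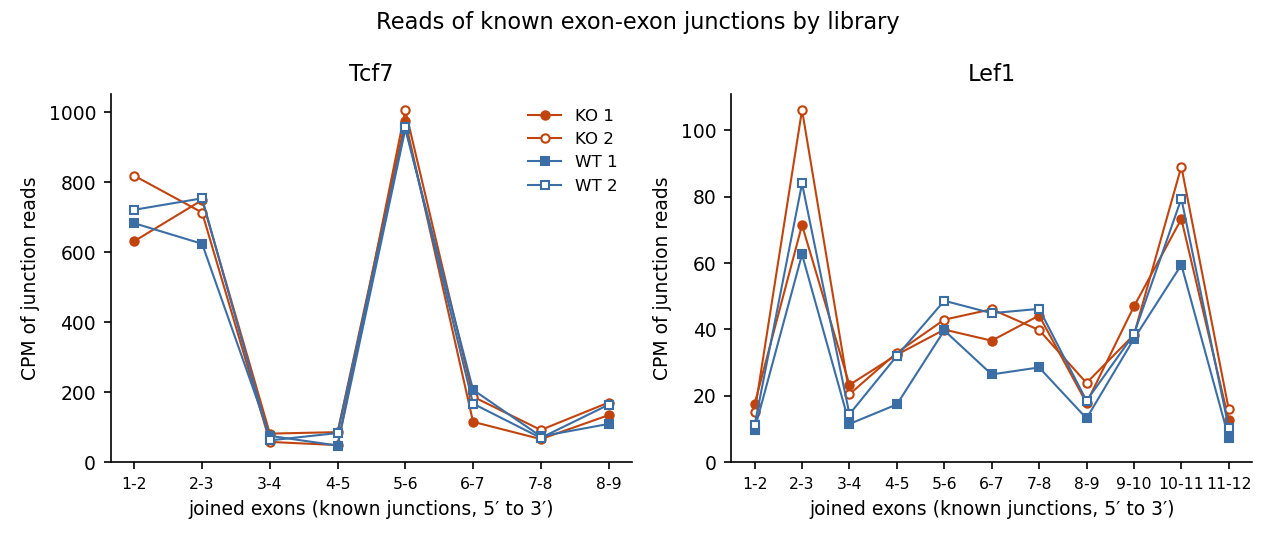
Reads on each known exon-exon junction of Tcf7 and Lef1, scaled to the junction reads of the library (CPM) and ordered 5′ to 3′, in KO libraries (circles) and WT libraries (squares). The profiles of the 4 libraries run together, with peaks between exons 5 and 6 of Tcf7 and between exons 2 and 3 and exons 10 and 11 of Lef1.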

How the data were processed

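RNA from total thymocytes of 2 KO and 2 WT mice was measured, with 1 library per mouse. The authors deposited raw read counts per RefSeq transcript, the same counts per nucleotide and their RPKM values, and, per library, raw read counts of known and putative exon-exon junctions. Per the file headers, only primary alignments counted, from mapping quality 10 upward. The build is mm9 per the submitters' processing notes; aligner and strand setting: not given in the sources used here.

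The transcript with the most reads stood for its symbol. Gene reads per library numbered 27548708 and 28677506 in KO and 41775795 and 51544714 in WT, and junction reads 3302915 and 3515308 in KO and 4759678 and 6146421 in WT. Genes were fitted over the whole table with edgeR 4.0.16 in R 4.3.3 (robust quasi-likelihood, TMM scaling, filter on low counts by group, Benjamini-Hochberg adjustment, threshold 0.05); fold changes are KO over WT. diffSpliceDGE was run on junctions of at least 10 reads where a gene had 2 or more of them. Both tests were checked on simulated data with large changes set in advance. That check does not show which smaller changes they can detect in these libraries. Intervals of shares are Clopper-Pearson intervals (SciPy 1.17.1), and counting intervals cover counting error only. Their total is the skipping reads plus the rounded mean of the 2 inclusion junctions, so they are approximate. Exons were numbered along the known junctions and matched to GENCODE M21 by exon and intron lengths; no mm9 genome was used.

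The members and the gene lists were chosen with earlier results of these data known. Genes named are the members, Hnrnpl, the 3 tested genes of each list with the highest mean RPKM, any past the threshold, the nearest neighbours and the genes closest in pattern. Alternatives were DESeq2 1.42.0 and its size factors, limma-voom (limma 3.58.1), upper-quartile scaling, no filter, no robust moderation, summed transcript rows, no small RNA genes, at least 20 reads per junction, known junctions alone, a single inclusion junction, a replicate block and leaving out each library. Replicate numbers come from the labels and name separate mice.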

Additional observations from a re-analysis of the deposited data

How the results depend on the processing

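The log2 fold change of Fzd10 stayed between -2.18 and -1.51 under every alternative. Genes called numbered 1 in the design as planned and with DESeq2's size factors, 0 with upper-quartile scaling, with limma-voom, without robust moderation and with summed transcript rows, 113 with DESeq2, 62 without a filter on low counts, 3 without small RNA genes, and 2 to 427 with 1 library left out. Junctions called numbered 4 as planned, 4 with at least 20 reads per junction, 2 among known junctions alone, 1 with limma-voom, and 3 to 10 with 1 library left out. KO and WT libraries share only mouse numbers: with those as a replicate block, 121 genes and 10 junctions were called, Cd3e was called (edgeR, adjusted p = 0.0097) while Rag2 was not (0.107), and the log2 fold change of Fzd10 was -1.83; the correlation of the same-numbered libraries' deviations over genes was 0.259, from 2 pairs. Skipping differences moved by more than the replicate spread with the downstream inclusion junction alone for Apc exon 8 (-3.00 points) and Lef1 exon 11 (-11.1 points), and with the upstream junction alone for Lef1 exon 11 (-1.28 points); Tcf7 exon 4 ran from -1.24 to 6.14 points with 1 library left out. Log2 fold changes near 0 changed sign: with upper-quartile scaling, Ctnnb1 (0.034), Apc (0.040) and Lrp6 (0.0083); with 1 library left out, Tcf7 (-0.12 to 0.0029), Lef1 (-0.041 to 0.35), Ctnnb1 (-0.15 to 0.13), Apc (-0.14 to 0.14), Axin2 (-0.0053 to 0.057), Wls (-0.63 to 0.0040), Lrp6 (-0.18 to 0.11), Kremen1 (-0.18 to 0.040), Rag1 (-0.47 to 0.015), Cd8b1 (-0.56 to 0.038) and Cd8a (-0.12 to 0.12). Cd8a was also below 0 with DESeq2's size factors (-0.0043), DESeq2 (-0.0043), no filter (-0.0060) and the replicate block (-0.00092). None of these genes was called in any of those fits. The cause of these shifts was not tested. With 2 libraries a group and 10 to 50 reads on the tested Axin2 junctions, small differences could not be detected at this depth. Hnrnpl, at 0.405 times the WT level in KO, was not called in the design as planned.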
